A study of Saccharomyces cerevisiae with 18 samples.

Results

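The indirect and the ds-cDNA labeling methods were compared gene by gene on 12 of the 18 arrays of the series, the 6 titled for each method, and the yeast transcript classes that read brighter with one method or the other are described. Each array gave 1 log2 intensity for each of 5739 genes of *S. cerevisiae* on a NimbleGen expression array. The RNA came from 2 engineered strains, EPY330 and EPY338, grown from 3 colonies each and induced in YPG medium for 24 h, and equal amounts of RNA from the colonies were pooled per strain. Each method labeled each pool 3 times from 10 µg of total RNA. The spread between replicates is therefore that of labeling, hybridization and scanning, and the p-values carry no difference between cultures.

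With the indirect method, oligo(dT) primes reverse transcriptase to copy RNA into a single strand of cDNA that carries reactive amino groups, to which the dye Alexa Fluor 555 is then coupled. With the ds-cDNA method, oligo(dT) likewise primes a first strand at the poly(A) tail of the mRNA, a second strand is made from it, and the Klenow enzyme copies both strands from random primers that carry Cy3. Both strands of a cDNA are thus labeled in the ds-cDNA method, while the indirect product is the antisense strand alone. The methods also differed in the amount of cDNA put on an array, 4 µg with ds-cDNA and 300 ng with indirect, and in the dye, so the effects of second strand, random-primed labeling, dye and amount cannot be told apart. The direct random arrays of the same RNA pools, 6 in number, took no part in the comparison and served as a separate reading of each gene.

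Differences are given as indirect minus ds-cDNA in log2 units, with the strain as a covariate. In limma with Benjamini-Hochberg adjustment, 5031 of 5739 genes (87.7%) had an adjusted p under 0.05, of which 2275 (39.6%) were higher and 2756 (48.0%) lower with the indirect method. A difference of at least 1 log2 unit, or 2-fold, was also asked for in the counts that follow. By that rule 982 genes (17.1%) were higher and 1057 (18.4%) lower with the indirect method. The 6 arrays of one method did not overlap with the 6 of the other in 979 of the higher genes (17.1% of all genes) and in 1050 of the lower genes (18.3%). The median difference over all genes was -0.09, since the array medians were 10.09 to 10.12 with ds-cDNA and 9.99 to 10.02 with indirect. The authors had quantile normalized the arrays, so differences are relative, and similar counts in both directions are no separate result. The median size of the difference was 0.70. Over genes the mean intensity of the indirect arrays had a Pearson correlation of 0.97 with that of the direct random arrays and of 0.75 with that of the ds-cDNA arrays (n = 5739 genes, which are not independent replicates). The direct random mean lay nearer to the indirect than to the ds-cDNA mean in 887 of the 982 higher genes (90.3%) and in 958 of the 1057 lower genes (90.6%). Over all genes the direct random mean had a Pearson correlation of 0.79 with the ds-cDNA mean, against 0.97 with the indirect mean. Such high shares go with these correlations and are no separate result about the genes counted.

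The genes at the ends of the distribution were of different kinds. The 10 genes most in favour of the indirect method held 3 genes of mitochondrial DNA (AI5_BETA, AI5_ALPHA and ATP6), 5 cytosolic ribosomal protein genes (RPL36A, RPS17A, RPL37A, RPL29 and RPS17B) and the genes of small mitochondrial proteins CMC4 and TOM5. All 10 were bright on the direct random arrays as well, with means of 12.17 to 14.26. The 10 genes most in favour of ds-cDNA were TAR1, YFL067W, RRT15, YFL068W, AUA1, PRY3, BUD25, YFL051C, VAM10 and YLR154C-H. Their ds-cDNA means were 12.07 to 15.83, their indirect means 7.30 to 8.90 and their direct random means 7.29 to 9.43, and 9 of the 10 lay in the dimmest quintile, the dimmest 20% of genes by mean on the direct random arrays. Direct random and indirect means correlate at 0.97 over genes, so genes picked for low or high indirect values tend to read alike there. Beyond 3 log2 units there were 80 genes on the indirect side and 28 on the ds-cDNA side, and beyond 5 there were 1 and 8.

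Genes that lie opposite another gene were among the genes that read far brighter with ds-cDNA. In yeast the genes lie close together, and where 2 genes on opposite strands overlap, each strand of the shared stretch belongs to a different RNA. A single-stranded label reports one strand there, while a label made from both strands contains the sequence of either gene. Of the 10 genes most in favour of ds-cDNA, 5 overlapped an opposite-strand gene in the R64 annotation, which holds for 76 of the 5720 nuclear genes on the array (1.33%). These 5 were TAR1, AUA1, BUD25, VAM10 and YLR154C-H.

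TAR1 encodes a small mitochondrial protein and lies antisense to the 25S rRNA gene, within the repeats that are transcribed into the most abundant RNA of the cell. TAR1 read 15.79, 15.83 and 15.86 as the lowest, median and highest of the ds-cDNA arrays and 7.32, 7.34 and 7.36 on the indirect arrays. It was thus near the top of the intensity scale with one method and near the bottom with the other, on a scale that ran from 7.25 to 15.87. The difference was -8.49 ± 0.04 (SE, n = 6 arrays per method, limma adjusted p = 5.6e-22), and the direct random arrays read 7.53 to 7.74.

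The other small reading frames of the ribosomal DNA region did not all go the same way. YLR154C-H, opposite the 5S rRNA gene RDN5-2, read 13.06 to 13.69 with ds-cDNA and 8.44 to 9.21 with indirect, a difference of -4.47 ± 0.12 (limma adjusted p = 1.57e-13). RRT15, which overlaps no annotated gene on the other strand, differed by -7.38 ± 0.08 (limma adjusted p = 2.88e-17), from a ds-cDNA median of 14.90 to an indirect median of 7.43. YLR154C-G is the reverse case, since it lies within the 25S rRNA gene RDN25-2 on the same strand. It read 13.09, 13.56 and 14.39 with ds-cDNA and 15.71, 15.80 and 15.87 with indirect, a difference of 2.14 ± 0.19 (limma adjusted p = 5.96e-08), and its direct random values of 15.64 to 15.88 were also near the top of the scale. The rDNA repeats are near-identical copies, so the values of these genes cannot be assigned to one copy.

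AUA1, BUD25 and VAM10 lie opposite protein-coding genes that are on the array too. AUA1, a gene linked to amino acid uptake, read 12.40, 12.80 and 13.09 with ds-cDNA and 7.39, 7.44 and 7.54 with indirect, a difference of -5.29 ± 0.09 (limma adjusted p = 1.42e-15). Its partner WWM1, which encodes a WW-domain protein, read 12.81 to 13.52 and 12.62 to 12.90. WWM1 differed by -0.37 ± 0.08 with overlapping arrays. With the indirect label AUA1 thus lay at the bottom of the scale and its partner did not.

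BUD25, named from bud-site selection, lies opposite HEM14 and FAA2. It read 12.35, 12.38 and 12.47 with ds-cDNA and 7.29, 7.30 and 7.32 with indirect (-5.09 ± 0.04, limma adjusted p = 2.35e-19). HEM14, of heme synthesis, went from 12.05 to 12.36 on the ds-cDNA arrays to 10.47 to 10.88 on the indirect arrays (-1.51 ± 0.06), and FAA2, an acyl-CoA synthetase, from 10.69 to 10.90 to 10.17 to 10.50 (-0.48 ± 0.06). Both partners stayed well above the bottom of the scale on the indirect arrays, where BUD25 lay. VAM10, a gene of vacuole morphology opposite the retromer gene VPS5, read 11.73, 12.07 and 12.31 with ds-cDNA and 7.28, 7.29 and 7.36 with indirect (-4.76 ± 0.08, limma adjusted p = 1.11e-15). VPS5 read 11.28 to 11.69 and 10.48 to 10.59 (-0.98 ± 0.06).

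**Figure D1:**
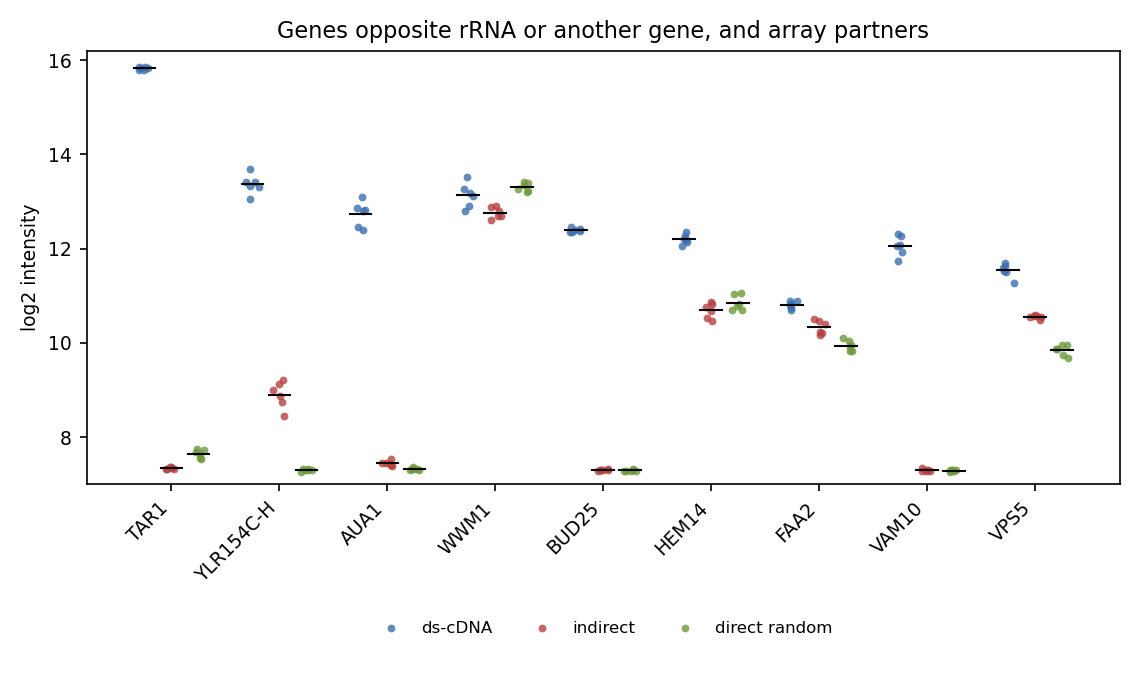
Log2 intensity (y axis) of genes that lie opposite ribosomal RNA or another gene, with the partners that are on the array (WWM1 for AUA1, HEM14 and FAA2 for BUD25, VPS5 for VAM10). Each point is 1 array, 6 per method, and black lines are means. TAR1 read 15.79 to 15.86 on ds-cDNA arrays and 7.32 to 7.36 on indirect arrays, while the lowest partner value on any array was 9.68.

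The whole set of 76 overlapped genes was split. The median difference was -0.48, and 27 genes (35.5%) were lower and 13 (17.1%) higher with indirect by at least 1 log2 unit, against 18.4% and 17.1% of all genes. Among the 26 overlapped genes in the dimmest quintile, 15 were lower, 0 were higher and the median was -1.17, whereas the 1121 nuclear genes of that quintile without an overlap had 188 lower, 25 higher and a median of -0.17. The 50 overlapped genes in the brighter quintiles had 12 lower, 13 higher and a median of -0.23. The quintiles were set on direct random arrays, which track the indirect ones. Indirect array medians were 7.40 to 7.49 for the 26 genes and 8.07 to 8.19 for the 1121. Near the bottom of the scale a gene can hardly be higher with indirect, so dim and brighter overlapped genes cannot be compared directly. Of the overlapped genes under 600 bases in the dimmest quintile 8 of 12 were lower, as were 24 of 226 such short genes without an overlap. Of the overlapped genes under 600 bases in the brighter quintiles 12 of 14 were higher and 1 lower, and genes of this length were high in those quintiles in general, as given with gene length.

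The 5 overlapped genes most in favour of the indirect method were LSM5, MRPL51, KTI11, CUP1-1 and ERV2. LSM5, a subunit of the ring that binds RNA in mRNA decay and splicing, read 8.37 to 8.55 with ds-cDNA and 11.47 to 11.76 with indirect (3.16 ± 0.05, limma adjusted p = 1.23e-15). The other 4 genes differed by 1.71 to 1.97. All 5 had an annotated length under 600 bases.

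Some further genes of this kind were chosen after their values were seen. IME4, the mRNA methyltransferase needed for entry into meiosis, has the antisense RNA RME2 on the other strand. It read 10.26, 10.61 and 10.77 with ds-cDNA and 7.31, 7.33 and 7.35 with indirect (-3.23 ± 0.07, limma adjusted p = 9.08e-15). PHO84, the high-affinity phosphate transporter, also lies opposite an annotated non-coding RNA and differed by -1.97 ± 0.08, from a ds-cDNA median of 13.99 to an indirect median of 12.07. Over the 14 genes that had only genes other than protein-coding ones on the other strand the median difference was -1.03, with 7 lower and 1 higher. For the 62 genes opposite a gene annotated as protein-coding it was -0.44, with 20 lower and 12 higher. Not every such partner gave a value on the array. Those of LSM5, MRPL51, KTI11 and ERV2 gave none, while those of AUA1, BUD25 and VAM10 did. The reverse also occurred, with EMI1 higher opposite the measured GRX2 and ARE1 lower opposite YCR050C, which gave no value.

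Most of the genes that were far brighter with ds-cDNA had no overlap in the annotation, though overlap was more frequent among them than among nuclear genes in general. Of the 28 genes beyond 3 log2 units, 7 were overlapped, against 76 of the 5720 nuclear genes (1.33%). In the dimmest quintile, which was set on direct random arrays that track the indirect ones, lay 23 of the 28. YFL067W and YFL068W, uncharacterized reading frames, read 15.24 to 15.45 and 14.62 to 14.86 with ds-cDNA and no more than 7.48 and 7.58 with indirect. PRY3, a cell wall protein gene of 2646 bases, read 13.25 to 13.89 with ds-cDNA, 7.96 to 8.41 with indirect and 9.19 to 9.76 with direct random. No annotated gene overlaps these 3 on the other strand, and untranslated regions, which can reach into a neighbour, are not in the annotation used.

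Over genes of all lengths, the 3′ neighbour of a gene made less difference than an annotated overlap. The 2722 genes followed on the same strand had a median difference of -0.14, the 2945 genes that faced an opposite-strand neighbour without overlap -0.03, and the 38 that overlapped that neighbour -0.51. Among short genes the gaps were larger. Under 300 bases the median was 0.22 for 140 genes followed on the same strand and 1.42 for 125 facing an opposite-strand neighbour without overlap. At 300 to 600 bases these medians were 0.80 and 1.31, and at 1200 to 2400 bases -0.54 and -0.43. The 2 groups under 300 bases were unlike in intensity, with 74 of 140 and 43 of 125 genes in the dimmest quintile. With the opposite-strand neighbour in the dimmest to the brightest quintile, the median was -0.14, -0.01, -0.04, 0.03 and 0.00. With genes of all lengths and intensities pooled, those facing a bright neighbour had no lower median than those facing a dim one. For genes themselves in the dimmest quintile the medians were -0.22, -0.16, -0.41, -0.11 and -0.06 in the same order. Whether the RNA of a neighbour reaches into a gene was not tested.

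Relative to each other, short genes read brighter with the indirect method and long genes brighter with ds-cDNA. The arrays were quantile normalized, so higher readings of one class go with lower readings elsewhere, and only the contrast is measured. Length here is that of the annotated gene model, introns included and untranslated regions left out, and each length class holds its lower bound but not its upper one. The median difference was 0.67 ± 0.08 over 268 nuclear genes under 300 bases, 1.12 ± 0.08 over 709 genes of 300 to 600 bases, 0.17 ± 0.04 over 1821 genes of 600 to 1200 bases, -0.50 ± 0.05 over 2052 genes of 1200 to 2400 bases and -0.55 ± 0.07 over 864 genes of 2400 bases and over, where the error is the SD of a difference between single arrays of the same strain. Of the genes of 300 to 600 bases, 385 were higher and 30 lower by at least 1 log2 unit. Of those of 1200 to 2400 bases, 65 were higher and 559 lower. Over 5714 nuclear genes the difference and log2 length had a Pearson r of -0.44 and a Spearman rho of -0.49. The length was related to the ds-cDNA mean with r = 0.22, to the indirect mean with r = -0.10 and to the direct random mean with r = -0.08, so that the ds-cDNA arrays stood apart from both others. Genes of 1 array share its label and background, and these coefficients describe the genes only.

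**Figure D2:**
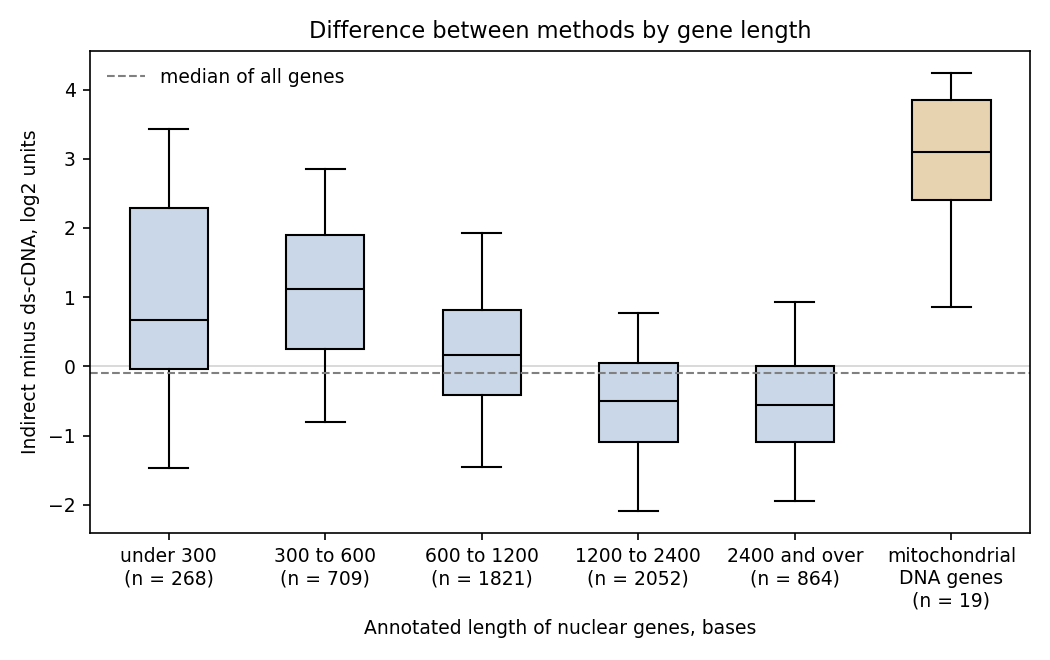
Indirect minus ds-cDNA difference in log2 units (y axis) by annotated length of nuclear genes in bases, with the mitochondrial DNA genes at the right. Boxes span the middle 50% of genes with the median as a line, and whiskers reach the 5th and 95th percentiles. The median falls from 1.12 at 300 to 600 bases to -0.55 at 2400 bases and over, and is 3.10 for the mitochondrial genes.

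The measured shift of short genes was larger in genes that were brighter on the direct random arrays. When genes were put into quintiles by their mean on the direct random arrays, genes under 300 bases had medians of -0.02, 0.87, 1.68, 2.51 and 2.44 from the dimmest to the brightest quintile, and genes of 300 to 600 bases 0.01, 0.73, 1.17, 1.48 and 1.49. The medians of genes of 1200 to 2400 bases were -0.40, -0.53, -0.56, -0.61 and -0.36. Of the 118 genes under 300 bases in the dimmest quintile, 2 were higher and 18 lower by at least 1 log2 unit, and of the 75 in the brightest quintile 64 were higher and 1 lower. Those 118 genes had array medians of 7.49 to 7.53 with ds-cDNA and 7.39 to 7.47 with indirect, near the bottom of the scale. The 120 genes of 300 to 600 bases in that quintile had 7.68 to 7.73 and 7.63 to 7.83. Differences are bounded there, so the small medians of dim short genes cannot be compared directly with those of brighter ones. In the second and the third quintile there were 19 genes under 300 bases each. Long genes were below 0 in every quintile. Over genes of all lengths the quintiles had medians of -0.18, -0.28, -0.26, 0.07 and 0.43. The direct random means that set the quintiles correlate at 0.97 with the indirect means and at 0.79 with the ds-cDNA means. Some rise of the difference from the dim to the bright quintiles is thus built into this grouping.

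**Figure D3:**
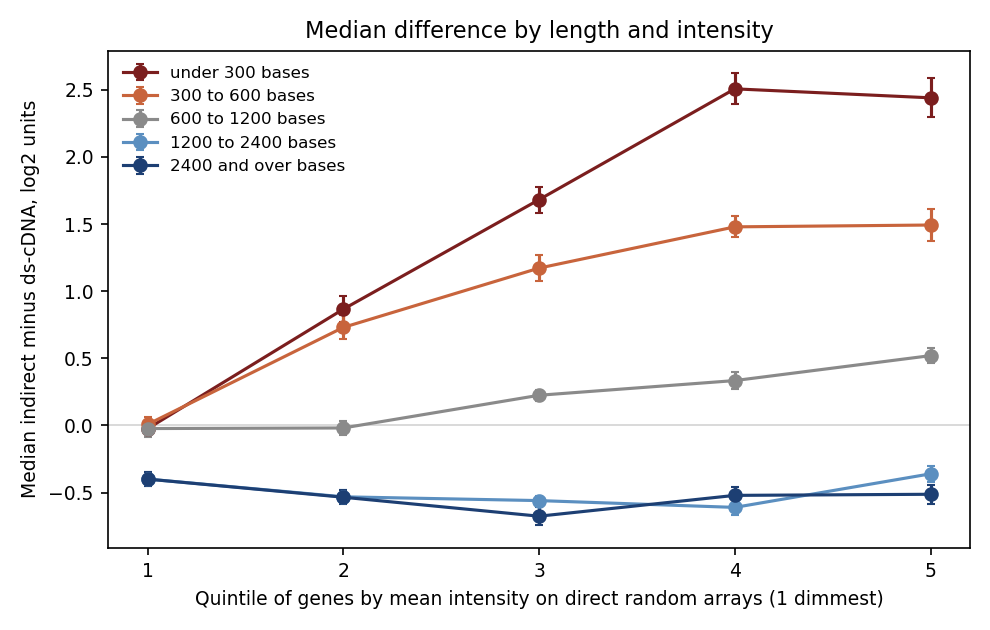
Median indirect minus ds-cDNA difference in log2 units (y axis) for nuclear genes in 5 length classes, against the quintile of genes by mean intensity on the direct random arrays (x axis, 1 dimmest). Error bars are the SD of the difference between single arrays of a strain. Genes under 300 bases go from -0.02 to 2.44, and genes of 2400 bases and over stay between -0.68 and -0.40. In the dimmest quintile the short genes lie near the bottom of the scale, where differences are bounded. Direct random means track the indirect means, so some rise of the difference along the x axis is built in.

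The genes of mitochondrial DNA had the highest median of the classes described. The mitochondrial chromosome encodes subunits of the respiratory chain and ATP synthase, a ribosomal protein and reading frames within introns, and mitochondrial mRNAs of *S. cerevisiae* are known to lack the poly(A) tails of nuclear mRNAs. Of its 19 genes on the array, 17 were higher with indirect by at least 1 log2 unit and 0 were lower, with a median of 3.10 ± 0.28. The class median was 9.10 to 9.50 on the ds-cDNA arrays, 12.54 to 13.34 on the indirect arrays and 13.05 to 13.55 on the direct random arrays. The arrays of the methods did not overlap for any of the 19 genes, which held even for VAR1 at a difference of 0.18. The 17 genes higher by at least 1 log2 unit without overlap stand against 979 of all 5739 genes (17.1%).

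The subunits of the respiratory complexes were among them at different distances. ATP6, a membrane subunit of ATP synthase, read 9.84, 10.07 and 10.40 with ds-cDNA and 13.34, 14.26 and 14.40 with indirect (4.03 ± 0.15, limma adjusted p = 2.87e-12). ATP8, which shares its transcript with ATP6, differed by 3.91 ± 0.24, from 7.38 to 7.57 up to 10.09 to 12.08. COX1, the large catalytic subunit of cytochrome c oxidase, read 10.39, 10.79 and 11.16 with ds-cDNA and 13.33, 13.98 and 14.05 with indirect (3.10 ± 0.13, limma adjusted p = 1.12e-11). Cytochrome b, COB, differed by 3.39 ± 0.12 and OLI1, the subunit of the ATP synthase ring, by 2.66 ± 0.13.

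COX2 and COX3, the other mitochondrial subunits of cytochrome c oxidase, differed between the single-stranded labels as well. COX3 read 8.71 to 8.82 with ds-cDNA, 9.58 to 10.19 with indirect and 14.32 to 14.84 with direct random, and COX2 read 9.96 to 10.55, 11.91 to 12.91 and 14.88 to 15.08. These 2 genes and the maturase-like frame Q0255, at 7.30 to 7.36, 7.93 to 8.33 and 11.28 to 12.81, thus lay nearer to ds-cDNA with the indirect label than to direct random. VAR1, the mitochondrial ribosomal protein, read at most 7.49 with each method and differed by 0.18 ± 0.04.

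The intron reading frames went the same way as their host genes. AI5_BETA, in an intron of COX1, had the largest difference of all genes toward the indirect method, 5.28 ± 0.08 (limma adjusted p = 7.71e-16), from 8.16, 8.32 and 8.40 with ds-cDNA to 13.20, 13.61 and 13.83 with indirect. The COX1 intron frames AI1 to AI4 and AI5_ALPHA differed by 2.79 to 4.24, and the COB intron frames BI2, BI3 and BI4 by 2.74, 2.33 and 2.49. These frames overlap the gene models of COX1 and COB, so their readings are not separate from those of the host genes. Of the 19 genes, 16 were lowest among the indirect arrays on EPY338 replicate 3. The class median lay 3.19 above that of all genes with this array and 3.27 without it.

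**Figure D4:**
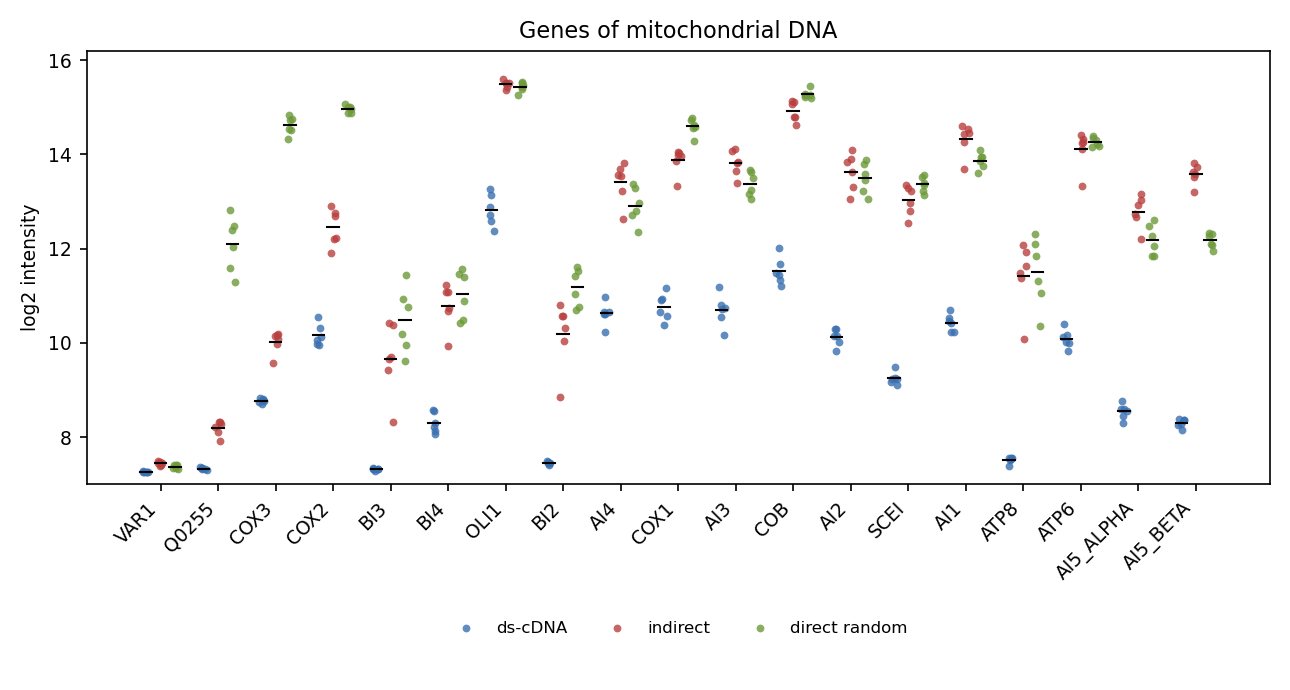
Log2 intensity (y axis) of the 19 genes of mitochondrial DNA, ordered by the indirect minus ds-cDNA difference. Each point is 1 array, 6 per method, and black lines are means. Each gene is higher with indirect than with ds-cDNA, from 0.18 for VAR1 to 5.28 for AI5_BETA. With indirect, COX2, COX3 and Q0255 lie nearer to ds-cDNA than to direct random. Some other genes, among them BI2, BI3, COX1 and COB, also have a higher mean with direct random than with indirect.

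Among the nuclear classes the cytosolic ribosomal proteins had the largest share of members on 1 side. Their mRNAs are short and abundant in growing cells. Of 132 genes, 120 were higher with indirect by at least 1 log2 unit and 0 were lower (17.1% and 18.4% over all genes), and the median was 2.13 ± 0.14. The class median was 11.41 to 11.75 on ds-cDNA arrays, 13.61 to 13.73 on indirect arrays and 13.48 to 13.57 on direct random arrays. In the brightest quintile of genes lay 130 of the 132.

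RPL36A, of the large subunit, read 8.41 to 8.74 with ds-cDNA and 12.92 to 13.08 with indirect (4.45 ± 0.05, limma adjusted p = 5.57e-17). RPL29 read 9.79 to 10.46 and 13.96 to 14.19 (3.96 ± 0.09, limma adjusted p = 1.8e-14). RPS17A and RPS17B differed by 4.28 ± 0.09 and 3.94 ± 0.13, and since their coding sequences are near-identical the copies cannot be told apart. At the other end RPS0B read 12.71 to 13.22 with ds-cDNA and 12.52 to 12.66 with indirect (-0.34 ± 0.07, limma adjusted p = 0.000349). RPS0A and RPL5, at -0.23 and -0.24, were the other ribosomal protein genes below 0.

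The cytosolic ribosomal proteins were high at each length. They had medians of 3.28 under 300 bases (7 genes), 2.24 at 300 to 600 (26 genes), 2.00 at 600 to 1200 (96 genes, a class in which many genes are known to carry an intron, counted in the length) and 1.92 at 1200 to 2400 (3 genes). The other genes of the brightest quintile had medians of 2.35, 1.34, 0.29 and -0.36 in the same classes, with 68, 198, 321 and 305 genes. No test was made of the difference between these groups.

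The ribosomal proteins of mitochondria, which are encoded in the nucleus, divided by length. Of 73 genes, 41 were higher and 2 lower (17.1% and 18.4% over all genes), with a median of 1.16 ± 0.09. The median was 2.95 for 4 genes under 300 bases, 1.79 for 28 genes of 300 to 600 bases, 0.22 for 38 genes of 600 to 1200 bases and -0.37 for 3 longer genes. MRP2, of the small subunit, read 7.77, 7.90 and 7.96 with ds-cDNA and 11.43, 11.58 and 11.84 with indirect (3.73 ± 0.06, limma adjusted p = 7.26e-16). MRPL40, of the large subunit and 894 bases long, went from 12.30 to 12.58 down to 10.65 to 10.85 (-1.72 ± 0.06, limma adjusted p = 1.46e-12).

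The nuclear genes of the respiratory chain and ATP synthase had a like profile. Of 43 genes, 23 were higher and 2 lower (17.1% and 18.4% over all genes), with a median of 1.17 ± 0.13. The median by length was 2.21 (12 genes), 1.38 (17 genes), 0.03 (7 genes) and -0.33 (7 genes). ATP19, a small subunit of ATP synthase, read 9.54 to 9.99 with ds-cDNA and 13.14 to 13.53 with indirect (3.62 ± 0.09, limma adjusted p = 3e-14). NDE2, the external NADH dehydrogenase of 1638 bases, differed by -1.39 ± 0.08.

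Histone genes were higher with indirect in 7 of 11 cases and lower in 0 (17.1% and 18.4% over all genes), with a median of 2.18 ± 0.23. Yeast histone mRNAs are polyadenylated, unlike those of animals. HHT1 and HHT2, which encode the same histone H3 protein, differed from each other. HHT1 read 8.88, 9.14 and 9.31 with ds-cDNA and 12.42, 12.59 and 12.74 with indirect (3.47 ± 0.06, limma adjusted p = 1.95e-15). HHT2 read 12.48, 12.58 and 12.94 with ds-cDNA and 12.64, 12.83 and 13.05 with indirect (0.21 ± 0.08, limma adjusted p = 0.0282), with overlapping arrays. The H4 copies HHF1 and HHF2 both differed by 2.46 ± 0.07, and the H2A and H2B genes by 1.67 to 2.78. The linker histone HHO1 and the centromeric variant CSE4 were at -0.30 and -0.33. HHT2 and the H2A and H2B genes were named after their values were seen.

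Hexose transporters went the other way. These sugar carriers of the plasma membrane are close in sequence, which leaves the reading of each copy uncertain. Of 14 genes, 11 were lower with indirect by at least 1 log2 unit and 0 were higher (18.4% and 17.1% over all genes). The median was -1.58 ± 0.10, and 7 of the 14 lay in the dimmest quintile. HXT15 read 10.34, 10.46 and 10.65 with ds-cDNA and 7.33, 7.36 and 7.43 with indirect (-3.11 ± 0.05, limma adjusted p = 1.61e-15), and its direct random values were 7.32 to 7.36. HXT1, HXT13 and HXT17, named after their values were seen, had the same form, with ds-cDNA medians of 10.40, 9.78 and 9.65 and indirect medians of 7.37, 7.32 and 7.34. HXT7, bright with each method, went from 14.34 to 15.21 down to 13.32 to 13.97 (-1.16 ± 0.10). HXT14 read 7.29 to 7.34 on all 12 arrays and did not pass the test (-0.01 ± 0.04, limma adjusted p = 0.83), though with median-centred arrays it was 0.093 and passed (limma adjusted p = 0.0227). All 14 genes are 1623 to 1779 bases long, and genes of 1200 to 2400 bases had a median of -0.50, with 27.2% lower and 3.17% higher.

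The seripauperins, near-identical cell wall proteins of the subtelomeres, lay close to the top of the scale. Their class median was 14.77 to 15.30 with ds-cDNA and 15.52 to 15.65 with indirect. Of 21 genes, 5 were higher by at least 1 log2 unit and 0 lower (17.1% and 18.4% over all genes), with a median of 0.58 ± 0.15. PAU17 read 10.86, 11.29 and 12.01 with ds-cDNA and 14.70, 14.95 and 15.22 with indirect (3.59 ± 0.10, limma adjusted p = 1.5e-13). Differences near the top of the scale are bounded by it, and cross-hybridization among copies was not tested.

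Several classes lay near the median of all genes, of which 17.1% were higher and 18.4% lower by at least 1 log2 unit. Glycolysis and fermentation had 4 of 27 genes higher and 2 lower (median 0.20 ± 0.14, and -0.035 relative to all genes after quantile normalization was repeated), from TPI1 at 1.93 ± 0.10 to ADH5 at -1.32 ± 0.11. TDH3, the glyceraldehyde-3-phosphate dehydrogenase, differed by 0.57 ± 0.06 and actin, ACT1, by 0.08 ± 0.06 (limma adjusted p = 0.207), a value that passed the test at 0.18 with median-centred arrays (limma adjusted p = 0.00712) and in the other direction at -0.21 with repeated quantile normalization (limma adjusted p = 0.00155). Of 142 genes of ribosome biogenesis 27 were higher and 17 lower (median 0.05 ± 0.04), from LOC1, of large subunit assembly, at 3.05 to FAF1, of small subunit assembly, at -1.86. The proteasome had 8 of 34 higher and 1 lower (median 0.26 ± 0.14), with the small lid subunit SEM1 at 3.34 and the large base subunit RPN2 at -1.50. Chaperones had 11 of 36 higher and 4 lower (median 0.15 ± 0.12), with the short mitochondrial chaperonin HSP10 at 3.32 and the Hsp40 gene YDJ1 at -1.40. In each of the last 3 classes the highest of these members was the shorter gene and the lowest the longer one.

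**Figure D5:**
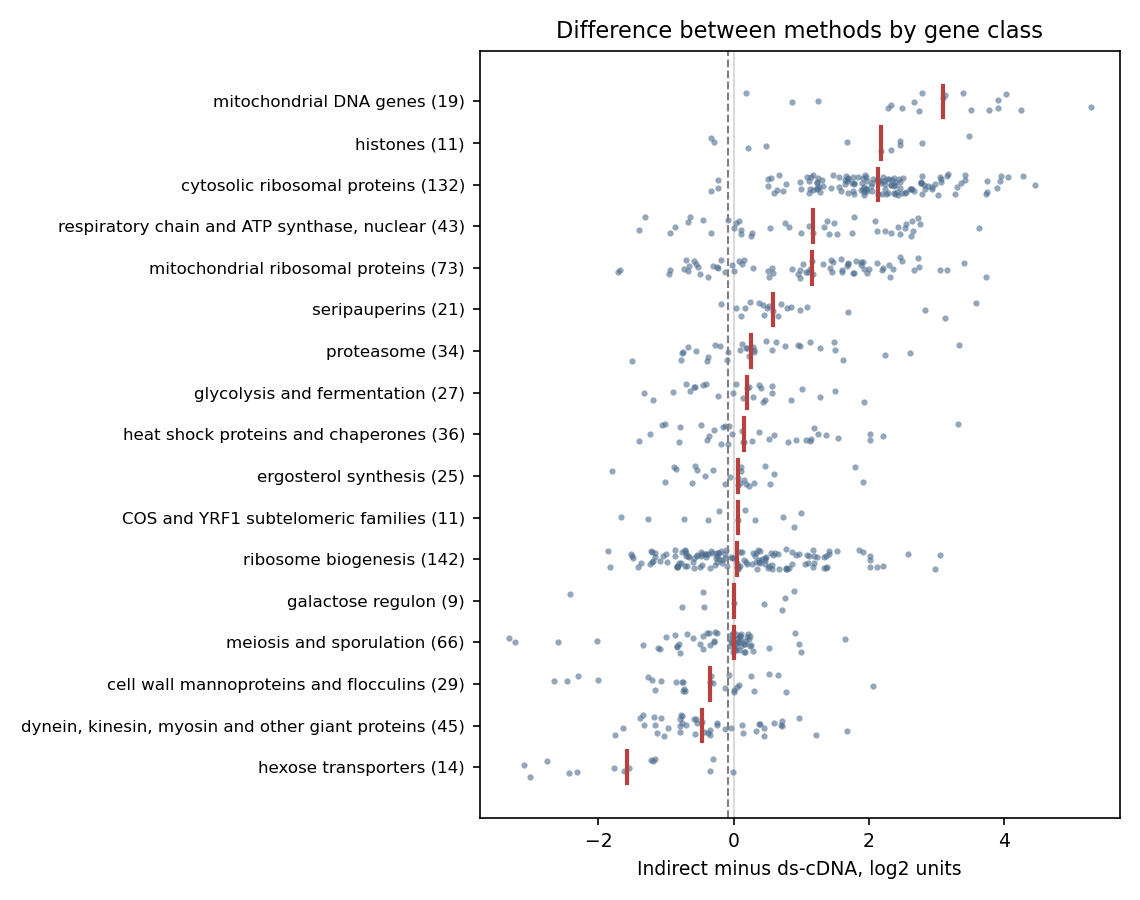
Indirect minus ds-cDNA difference in log2 units (x axis) of the members of 17 gene classes, 1 point per gene with the number of genes in brackets; the 4 rDNA reading frames are not plotted. Red bars are class medians, and the dashed line is the median of all 5739 genes, -0.09. The plotted class medians run from -1.58 for hexose transporters to 3.10 for mitochondrial DNA genes.

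A few classes had more members lower than higher by at least 1 log2 unit, as had all genes (18.4% and 17.1%). Giant proteins, such as dynein and myosins, had 10 of 45 lower (22.2%) and 2 higher (4.44%), with a median of -0.47 ± 0.12. They ran from the dynein anchor NUM1 at -1.75 to USO1, a tether of transport vesicles, at 1.68. All nuclear genes of 2400 bases and over had a median of -0.55, with 30.0% lower and 4.75% higher. Cell wall mannoproteins had 8 of 29 lower (27.6%) and 1 higher (3.45%), with a median of -0.35 ± 0.22, from HPF1 at -2.66 to SPI1 at 2.06. Meiosis and sporulation genes had 8 of 66 lower (12.1%) and 1 higher (1.52%), both below the shares of all genes. Their median was 0.00, and 56 of the 66 were in the dimmest quintile. Relative to all genes the class median was 0.09, and it turned to -0.68 when the dimmest 25% of genes were left out, which leaves few of its members. That cut used the mean of the compared arrays, so a gene near the bottom with indirect stayed in only if bright with ds-cDNA. SMK1, a protein kinase of spore wall formation, read 10.43 to 10.98 with ds-cDNA and 7.35 to 7.36 with indirect (-3.33 ± 0.09, limma adjusted p = 1.45e-13). SPO73 was the highest of that class at 1.65 ± 0.05.

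The galactose genes, which galactose is known to switch on, had 1 of 9 lower and 0 higher, against 18.4% and 17.1% of all genes. GAL4, the activator, has an annotated non-coding RNA on the other strand and read 10.84 to 11.32 with ds-cDNA and 8.55 to 8.87 with indirect (-2.42 ± 0.08, limma adjusted p = 9.55e-13). GAL10, the epimerase, has one as well and read 13.20 to 13.98 and 14.29 to 14.75 (0.89 ± 0.11, limma adjusted p = 3.09e-06). Ergosterol synthesis had 2 of 25 higher and 2 lower, from ERG29 at 1.91 to the cytochrome P450 reductase NCP1 at -1.79. The subtelomeric COS and YRF1 families had 2 of 11 lower and 0 higher, from COS9 at 0.99 to COS5 at -1.67. The 537 genes without a standard name had 72 higher and 85 lower (median -0.08 ± 0.04).

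Few genes passed the test for a difference between the strains in this comparison. The interaction of method and strain passed an adjusted p of 0.05 in limma for 21 of 5739 genes (0.366%), 11 with a larger value in EPY330 and 10 with a larger value in EPY338, and 466 genes had an unadjusted p under 0.05.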

How the data were processed

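The authors summarized probes and normalized arrays with the RMA algorithm and quantile normalization in ArrayStar after image analysis with NimbleScan, and adjusted the scanner gain for each image. The deposited values are log2 intensities, 1 per gene and array. Of 5861 entries, 122 without values were left out, and 5739 genes were tested with no filter on dim genes. The precision is limited by the number of arrays, 3 per method and strain. The labels do not tie arrays to slides, and no slide effect was fitted.

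The 6 indirect and 6 ds-cDNA arrays were fitted with limma 3.58.1 in R 4.3.3 (lmFit and eBayes, strain as covariate), p-values were adjusted after Benjamini and Hochberg for all 5739 genes, and thresholds were 0.05 and 1 log2 unit. The interaction was fitted on 4 group means. The spread of a group median was computed from the array medians of its genes within each method and strain. The limma step was tested on simulated data before use. Symbols, neighbours and lengths came from the R64 annotation by systematic name (5733 genes matched), and strand from the W or C of that name. Of nuclear lengths, 96.8% were multiples of 3. No source used here names the probes' genome build, and coordinates are left out. Length of gene models took the place of protein length, as no protein table was used, and genes of Ty elements and genes with introns were not analysed here as classes.

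Members and lists were chosen with earlier results of these data known. Named genes were the 10 highest and 10 lowest among genes with an adjusted p under 0.05 and no overlap between methods, the highest and lowest of each class, the 5 highest and 5 lowest genes overlapped on the opposite strand, the 3 largest interactions in each direction, and TDH3, ACT1, COX1 and TAR1. Other genes in the text were chosen after their values were seen, among them the array partners, further mitochondrial genes and individual class members. The alternatives were median centring, repeated quantile normalization, 1 fit of 18 arrays, a variance trend, the methods' t-test, limma treat, a replicate block, each strain alone, no dim genes, and leaving out each array. Summaries and plots were made in Python 3.11.15 (matplotlib 3.10.9).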

Additional observations from a re-analysis of the deposited data

Results flagged for a closer look

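The difference between indirect and ds-cDNA itself differed between the strains for 21 genes by the interaction test in limma (adjusted p under 0.05). The interaction is the indirect minus ds-cDNA difference of EPY330 less that of EPY338, in log2 units. CIS1 had 1.78 ± 0.10 (adjusted p = 1.74e-06, limma), with means of 11.44 and 8.56 in EPY330 and of 8.65 and 7.55 in EPY338 for indirect and ds-cDNA. The hexose transporters HXT3 and HXT11 had 1.21 ± 0.17 and 1.21 ± 0.13 (adjusted p = 0.0047 and 0.000706, limma). HUG1, an inhibitor of ribonucleotide reductase, had -1.24 ± 0.12 (adjusted p = 0.000279, limma), with means of 9.51 and 7.82 in EPY330 and of 11.40 and 8.47 in EPY338. HXT8 had -1.15 ± 0.11, and its indirect means of 7.86 and 7.45 lay near the bottom of the scale. The ds-cDNA means of CIS1 in EPY338 (7.55) and of HUG1 in EPY330 (7.82) were also low on the scale. So was the indirect mean of HXT11 in EPY338 (8.03), and differences are bounded at the bottom. MF(ALPHA)2, an alpha-factor gene, had -1.12 ± 0.12. HXT11 and HXT8 belong to a family of close copies.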

How the results depend on the processing

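The counts of genes higher (982) and lower (1057) by at least 1 log2 unit stayed between 827 and 1086 and between 829 and 1104 under the alternatives run, and between 969 and 996 and between 1037 and 1077 when 1 array was left out. The following medians are relative to that of all genes. With quantile normalization repeated they were 2.05 for cytosolic ribosomal proteins, -0.035 for glycolysis (0.29 as reported), 0.45 for seripauperins, -0.12 for ergosterol synthesis (0.16), -0.55 for cell wall mannoproteins, and -0.12, -0.12 and 0.36 for the second, the third and the brightest quintile. Without the dimmest 25% of genes they were 3.51 for mitochondrial DNA genes, -0.68 for meiosis and sporulation (0.09), -0.062 for genes without a standard name (0.01), 2.39, 1.46, 0.40 and -0.47 for the length classes from under 300 to 1200 to 2400 bases, -1.41 and -0.41 for the dimmest and second quintiles, -0.076 with a 3′ neighbour on the same strand, -0.31 with an overlapping opposite one, and -0.27 for all overlapped genes. These groups hold fewer genes by construction, and for the other changes the cause was not tested. With EPY330 alone the nuclear respiratory class had 1.44 and hexose transporters -1.38. With EPY338 alone hexose transporters had -1.77 and the brightest quintile 0.47. HXT14 was 0.093 after median centring (limma adjusted p = 0.0227) and 0.0038 in EPY338 alone, and ACT1 was -0.21 with repeated quantile normalization (limma adjusted p = 0.00155) and -0.036 in EPY330 alone. Median centring moved the median of all genes by 0.10.

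Replicate numbers were not taken as pairs, since of 18 pairs with the same number 5 correlated above 0.1 (-0.25 to 0.25), as did 11 of 36 pairs with different numbers (-0.32 to 0.30). Among the 5 were the 3 pairs of indirect EPY330 with indirect EPY338 arrays (0.123, 0.149 and 0.253), whereas no set of ds-cDNA with indirect pairs had all 3 above 0.1. A replicate block gave 982 higher and 1057 lower genes, 5015 genes with an adjusted p under 0.05 in place of 5031, and 19 interactions in place of 21. A prior variance with a trend gave 31 interactions, and leaving out 1 array between 14 and 17. Values near 7.3 and near 15.8 lie at the ends of the scale, where differences are bounded.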
